A study of Mus musculus with 6 samples.

Results

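The miR-219 and miR-338 families were described in the nucleus accumbens (NAc) of mice from a morphine conditioned place preference (CPP) experiment. The members were taken by name from the deposited miRNA table, whatever their level. They were the 2 arms and the second 3p form of miR-219a, both arms of miR-338, and the arms of miR-219b and miR-3065, which are annotated on the opposite DNA strand of miR-219a-2 and miR-338. These are 9 of the 1364 miRNAs in the table, and all 9 had at least 3 counts in every library. All miRNAs of the table were tested, with no filter on low values.

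The samples were NAc tissue of adult male C57BL/6N mice aged 7 to 8 weeks. The morphine group received 10 mg/kg morphine and the saline group received saline, both by intraperitoneal injection over 6 days of conditioning, and tissue was taken 0.5 h after the preference test on day 7. There were 3 small RNA libraries in each group. The series record and the text of the study differ on whether a library held a single mouse or pooled mice, so p-values measure the spread between these libraries, which may be in part technical. The tissue was a whole dissected region, in which fewer oligodendrocytes and less of a miRNA per oligodendrocyte cannot be told apart.

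Oligodendrocytes are the myelinating cells of the central nervous system. miR-219 and miR-338 are known to rise as oligodendrocyte precursors stop dividing and mature, and to repress genes that hold precursors in the dividing state, among them Pdgfra, Sox6 and Hes5. A miRNA hairpin is cut into a 5p and a 3p arm, and an arm loaded into Argonaute finds its targets mainly through its seed, bases 2 to 8 from the 5′ end. miR-219a-5p and miR-338-3p are the arms usually studied as guides in these cells.

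Mature sequences of 7 of the 9 members were matched by name in RefSeq on GRCm38.p6. The others are miR-219a-2-3p and miR-3065-3p. The sequences are shown because the arms of 1 hairpin carry different seeds, and because the arms of opposite-strand partners are nearly reverse complements, on which the reading of the counts depends. Capitals mark the seed.
mmu-miR-219a-5p: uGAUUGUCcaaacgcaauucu
mmu-miR-219b-3p: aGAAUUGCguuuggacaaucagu
mmu-miR-219b-5p: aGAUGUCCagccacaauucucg
mmu-miR-219a-1-3p: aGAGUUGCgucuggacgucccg
mmu-miR-338-3p: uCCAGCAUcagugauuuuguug
mmu-miR-3065-5p: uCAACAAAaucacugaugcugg
mmu-miR-338-5p: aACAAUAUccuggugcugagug
The 7 seeds all differed, and 0 other mature miRNAs in the RefSeq table carried any of them. Mature lengths ran from 21 to 23 bases, so counts were compared between members without a length correction. Whether different sequences enter the counts equally well was not tested, so an order of members is an order of counts. GC content was 38.1% in miR-219a-5p, 40.9% in miR-338-3p and miR-3065-5p, 45.5% in miR-338-5p and 63.6% in miR-219a-1-3p.

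The hairpins lie at 3 loci of GRCm38. Mir219a-2 is on the minus strand of chromosome 2 at chr2:29845631-29845727, and Mir219b is inside it on the plus strand at chr2:29845647-29845711. They overlap no protein-coding gene of GENCODE vM21, and the nearest is Urm1. Mir338 is on the minus strand at chr11:120014765-120014862, in an intron of Aatk, which is transcribed from the same strand, and Mir3065 is on the plus strand at chr11:120014767-120014853. Mir219a-1 is on the minus strand at chr17:34024983-34025092, where it overlaps an exon of the long non-coding RNA Gm26940. miR-219a-5p is encoded in both Mir219a hairpins with the same sequence, so its reads could not be assigned to a locus, whereas miR-219a-2-3p and miR-219a-1-3p each come from 1.

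The total count was between 4183333 and 9842050 per library. Levels are given as CPM (counts scaled to a common library size, here by TMM). On this scale a count of 3 stood for 0.315 CPM in saline replicate 3, the lowest, and 0.549 CPM in saline replicate 1, the highest. This floor covers counting error only. Saline replicate 2 differed from the other saline libraries. Over 404 miRNAs with a mean of at least 10 CPM, Pearson's correlation of log2(CPM + 1) between saline replicate 2 and the other saline libraries was 0.848 and 0.861, against 0.985 for saline replicates 1 and 3 and at least 0.983 within the morphine group. With the morphine libraries, saline replicate 2 correlated at 0.908 to 0.922, whereas saline replicates 1 and 3 correlated with them at 0.847 to 0.879. Saline replicates 1 and 3 were thus as far from the remaining libraries as saline replicate 2 was from them, and these values do not show which saline libraries are typical. For the members, each group difference below is given with and without saline replicate 2 where it changes the call or the direction.

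mmu-miR-219a-2-3p (mmu marks the mouse) had by far the highest counts among the members. Its level was 1753, 1449 and 1817 CPM in saline replicates 1, 2 and 3, and 1762, 1467 and 1840 CPM in morphine replicates 1, 2 and 3, from 9576 to 17321 counts per library. The groups overlapped nearly completely, and saline replicate 2 was the lowest library by a small margin. The saline libraries averaged 1673 ± 197 CPM (SD, n = 3) and the morphine libraries 1690 ± 197 CPM (SD, n = 3). The log2 fold change (log2FC, morphine over saline) was 0.01 (SE 0.44), with a 95% interval from -0.89 to 0.92 and an adjusted p of 0.995 in edgeR's quasi-likelihood test. The interval reaches from a 0.538-fold to a 1.90-fold level. With saline replicate 2 left out, it narrowed to between -0.55 and 0.39.

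**Figure D1:**
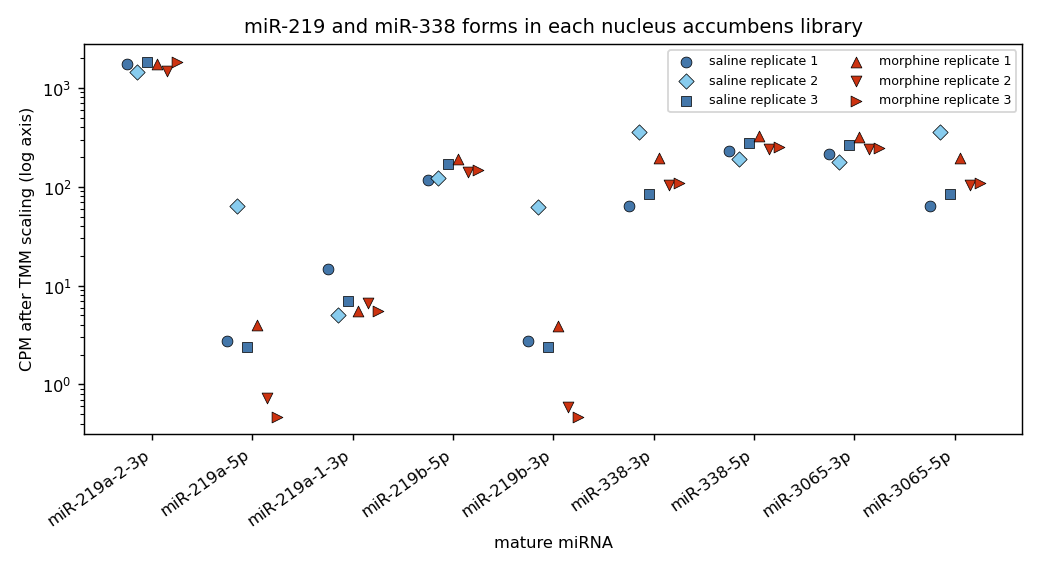
Level of the 9 miR-219 and miR-338 forms in each of the 6 libraries, as CPM after TMM scaling on a log axis, with 1 point per library (blue, saline; red, morphine; light diamond, saline replicate 2). miR-219a-2-3p stays between 1449 and 1840 CPM, while miR-219a-5p, miR-219b-3p, miR-338-3p and miR-3065-5p are highest in saline replicate 2.

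The order of the levels was set by the median over the 6 libraries. miR-219a-2-3p was at 1758 CPM, miR-338-5p at 247 CPM, miR-3065-3p at 242 CPM, miR-219b-5p at 145 CPM and miR-338-3p, with miR-3065-5p, at 107 CPM. miR-219a-1-3p was at 6.06 CPM, and miR-219a-5p, with miR-219b-3p, was lowest at 2.58 CPM. The ranges of miR-338-5p and miR-3065-3p overlapped, and the ranges of miR-3065-3p and miR-219b-5p overlapped. Within each library, however, miR-338-5p was above miR-3065-3p and miR-3065-3p above miR-219b-5p, in 6 of 6 libraries. The range of miR-219b-5p, 118 to 190 CPM, lay inside that of miR-338-3p, 64.2 to 361 CPM, and miR-219b-5p was the higher of the 2 in 4 of 6 libraries. miR-219a-2-3p alone made up between 51.9% and 71.1% of the counts of the 9 members, which together took between 0.216% and 0.358% of a library's counts. The counts of the opposite-strand members are included in this sum.

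mmu-miR-219a-5p, the 5p arm of both Mir219a hairpins, had few counts in all libraries but saline replicate 2. It had 15, 426 and 23 counts in saline replicates 1, 2 and 3, and 36, 5 and 3 counts in morphine replicates 1, 2 and 3. Saline replicate 2 was far above every other library, and saline replicates 1 and 3 fell inside the range of the morphine libraries, so the groups overlapped. In CPM these counts were 2.75, 63.9 and 2.41 in the saline group and 3.98, 0.733 and 0.471 in the morphine group. A miRNA was called where |log2FC| reached 0.58 and the unadjusted p did not exceed 0.05, and by these criteria miR-219a-5p was lower in the morphine group, with a log2FC of -3.69 (SE 1.03, edgeR adjusted p = 0.0376). The call rested on 1 library. Without saline replicate 2 the log2FC was -0.50 (SE 0.56, edgeR adjusted p = 0.543) and the call was lost. The adjusted call, at an adjusted p under 0.05, was also lost without morphine replicate 1 (adjusted p = 0.264, log2FC -5.07) and without morphine replicate 2 (adjusted p = 0.0590), both in edgeR. In the fit without morphine replicate 1, however, 0 of 1321 miRNAs had an adjusted p under 0.05, so that loss was not particular to miR-219a-5p. DESeq2 gave miR-219a-5p no p-value, because its Cook's distance in saline replicate 2, 25.0, was above the limit of 18 that DESeq2 applies.

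mmu-miR-219b-3p, which lies opposite miR-219a-5p, had 15, 420 and 23 counts under saline and 35, 4 and 3 under morphine. These counts equal those of miR-219a-5p in 3 of 6 libraries and are lower by at most 6 in the others. It too was called lower, at a log2FC of -3.74 (SE 1.03, edgeR, adjusted p = 0.0365), and without saline replicate 2 the log2FC was -0.56 (adjusted p = 0.515). Of the 9 members, these 2 were called, 0 higher and 2 lower in the morphine group. Over all 1364 miRNAs tested, 19.4% met the same criteria, 9.68% in each direction. At an adjusted p under 0.05, 2 of 9 members were called against 5.21% of all miRNAs. The 2 calls repeat nearly the same counts and cannot be read as 2 separate observations. For 0 of the 9 members did the values of the groups not overlap, whereas 22.1% of all miRNAs had no overlap. The median log2FC was -0.31 over the 9 members and -0.15 over all miRNAs.

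mmu-miR-338-3p, the 3p arm of Mir338, had 351, 2406 and 802 counts in saline replicates 1, 2 and 3, and 1780, 709 and 699 counts under morphine. In CPM this was 64.2, 361 and 84.1 in the saline group and 197, 104 and 110 in the morphine group. Saline replicate 2 was the highest of the 6 libraries, while saline replicates 1 and 3 were the lowest, below all 3 morphine libraries. With all 6 libraries the log2FC was -0.31 (SE 0.58, edgeR adjusted p = 0.783), with a 95% interval from -1.52 to 0.89. Without saline replicate 2 the direction turned, and miR-338-3p was called higher in the morphine group, with a log2FC of 0.88 (SE 0.31, 95% interval from 0.28 to 1.49, adjusted p = 0.0172 with edgeR), a 1.84-fold higher level. In that fit 37.0% of 1328 miRNAs were called by the criteria, 20.9% as higher and 16.1% as lower, and 29.1% passed an adjusted p of 0.05. The call is therefore 1 of many in a comparison of 2 saline with 3 morphine libraries. miR-3065-5p, the arm opposite miR-338-3p, had the same count in every library, and so the same values throughout.

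mmu-miR-338-5p, the other arm of Mir338, did not follow miR-338-3p. It had 1268, 1281 and 2669 counts under saline and 2956, 1660 and 1598 under morphine, or 232, 192 and 280 CPM against 327, 243 and 251 CPM. Here saline replicate 2 was the lowest library, and the groups overlapped. The log2FC was 0.22 (SE 0.46, 95% interval from -0.73 to 1.17, adjusted p = 0.799 with edgeR). It was 0.10 (SE 0.27) without saline replicate 2. miR-3065-3p, which lies opposite miR-338-5p, had a log2FC of 0.30 (SE 0.46, edgeR adjusted p = 0.725).

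**Figure D2:**
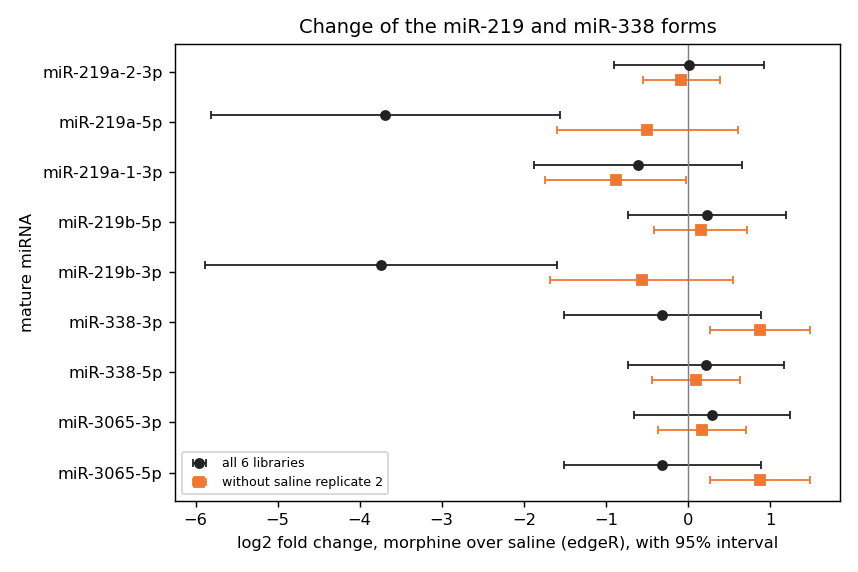
Log2 fold change (morphine over saline, edgeR) of the 9 members with all 6 libraries (black circles) and without saline replicate 2 (orange squares), with 95% intervals as bars. miR-219a-5p moves from -3.69 to -0.50 and miR-338-3p from -0.31 to 0.88 when that library is left out, while miR-219a-2-3p stays near 0.

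mmu-miR-219b-5p, the arm opposite miR-219a-2-3p, had 118, 121 and 169 CPM under saline and 190, 143 and 147 CPM under morphine. Its log2FC was 0.23 (SE 0.47, edgeR adjusted p = 0.795), and the groups overlapped. miR-219a-1-3p, the 3p arm of the Mir219a-1 hairpin, had 81, 34 and 67 counts under saline and 50, 45 and 35 under morphine. Its log2FC was -0.61 (SE 0.61, edgeR adjusted p = 0.584). It was called lower at -0.88 (adjusted p = 0.121 in edgeR) without saline replicate 2, and without saline replicate 1, its highest library, the log2FC was 0.05.

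Because ratios inside a library do not depend on the scaling between libraries, the arms were also compared directly. The ratio of miR-338-3p to miR-338-5p counts was 0.277, 1.88 and 0.300 in saline replicates 1, 2 and 3, and 0.602, 0.427 and 0.437 under morphine. The arm usually studied as a guide thus had the fewer counts in most libraries. In saline replicate 2 the 3p arm had the more counts of the pair, and in the other 5 libraries the 5p arm did. The log2 ratio averaged -0.89 ± 1.56 (SD, n = 3) under saline and -1.05 ± 0.28 (SD, n = 3) under morphine, a difference of -0.16 (exact two-sided permutation test, p = 1.0, where 3 libraries against 3 cannot go below 0.1). Without saline replicate 2 the difference was 0.74, with both saline libraries below all 3 morphine libraries (exact permutation test, p = 0.2). A test of 2 libraries against 3 cannot go below 0.2, so this p cannot decide on the difference.

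The ratio of miR-219a-2-3p to miR-338-3p sets the 2 families against each other. It was 27.3, 4.01 and 21.6 under saline and 8.95, 14.1 and 16.8 under morphine. Saline replicate 2 was lowest and saline replicates 1 and 3 were highest, so the groups overlapped, and the mean log2 ratio differed by -0.05 (exact two-sided permutation test, p = 1.0). Leaving out saline replicate 2 made the difference -0.92, with no overlap (exact permutation test, p = 0.2, the smallest that 2 libraries against 3 allow). The ratio of miR-219a-2-3p to miR-219a-5p ran from 22.7 in saline replicate 2 to 3906 in morphine replicate 3. It was 638 and 753 in saline replicates 1 and 3 and 443 and 2003 in morphine replicates 1 and 2. The mean log2 ratio was higher by 2.77 in the morphine group (exact two-sided permutation test, p = 0.3), and by 1.13 without saline replicate 2. The higher ratios rest on as few as 3 counts of miR-219a-5p.

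**Figure D3:**
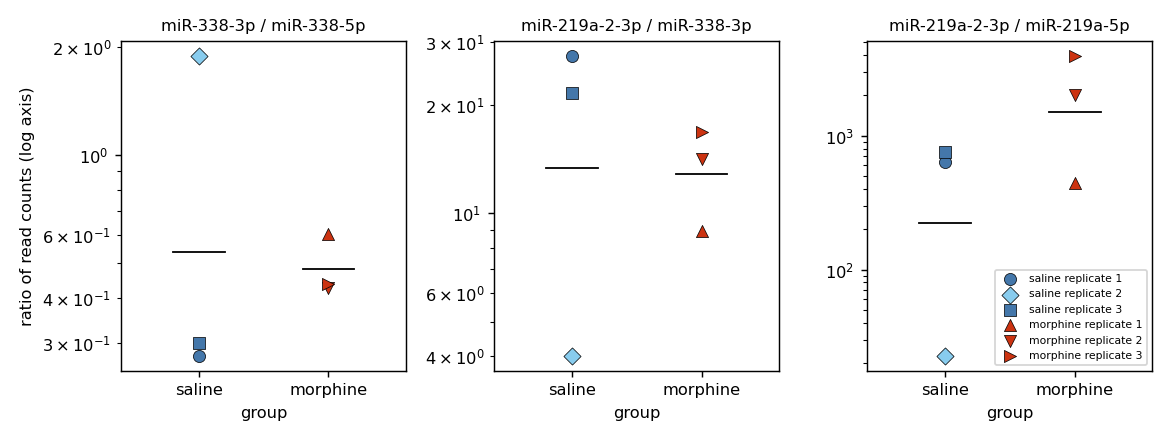
Ratios of read counts inside each library on log axes, by group, with 1 point per library and a line at the geometric mean of each group (blue, saline; red, morphine; light diamond, saline replicate 2). Saline replicate 2 has the highest ratio of miR-338-3p to miR-338-5p, 1.88, and the lowest ratios of miR-219a-2-3p to miR-338-3p and to miR-219a-5p, 4.01 and 22.7.

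The counts of opposite-strand partners were then set side by side, since reads of near-complementary arms can be told apart only if the counting kept the strand, which is not stated. miR-3065-5p overlaps 21 bases of miR-338-3p on the other strand, and the 2 had identical counts in 6 of 6 libraries. miR-219b-3p covers all 21 bases of miR-219a-5p, and its count was at least 80.0% of that of miR-219a-5p, the lowest value being 4 counts against 5. miR-3065-3p was between 91.6% and 98.1% of miR-338-5p. It was 91.6%, 92.7% and 94.5% under saline and 97.9%, 98.1% and 98.0% under morphine, without overlap (exact two-sided permutation test of the log2 ratio, p = 0.1, the smallest this design allows). miR-219b-5p differed from these. It was between 6.73% and 10.8% of miR-219a-2-3p, with 6.73%, 8.38% and 9.32% under saline and 10.8%, 9.72% and 8.01% under morphine (exact two-sided permutation test, p = 0.4). Of the 7 ratios tested in all, none had a Benjamini-Hochberg adjusted p below 0.7 (exact permutation tests). A single ratio at the smallest p of 0.1 could not have gone lower among 7, so the adjusted value cannot decide on miR-3065-3p.

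**Figure D4:**
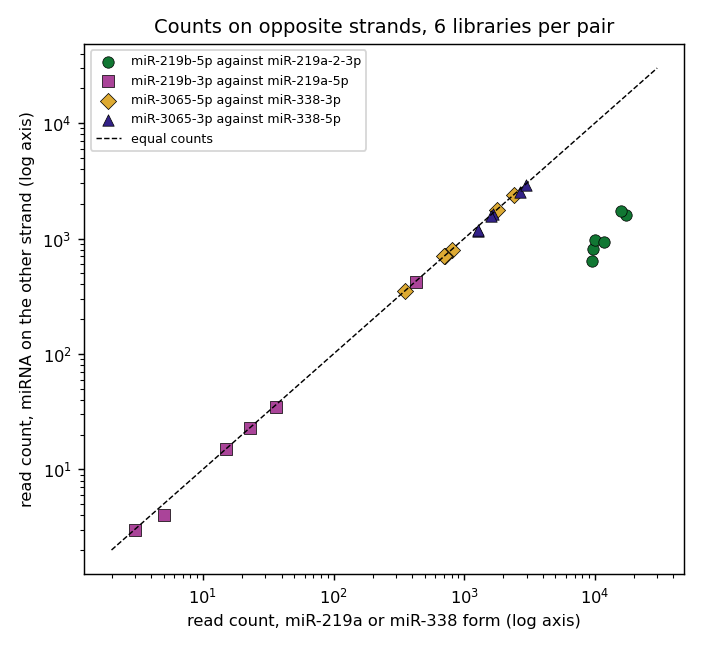
Read count of each opposite-strand member against its partner in the 6 libraries, on log axes, with a dashed line where both counts are equal. The pairs of miR-338-3p, miR-338-5p and miR-219a-5p lie on or just below the line, and that of miR-219a-2-3p lies well below it.

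Other miRNAs annotated on opposite strands gave the background for these values. Without the 4 pairs that hold a miR-219 or miR-338 form, the RefSeq positions held 21 such pairs with an overlap of at least 15 bases and at least 100 counts of the more abundant partner. In 9 of the 21 the lesser count never fell under 90% of the greater in any library, and 1 pair, miR-142a-3p with miR-142b, was identical in all 6 libraries. At the Mir219a-1 locus, miR-219c-3p overlaps 20 bases of miR-219a-5p, yet it had no count in 5 libraries and 2 counts in morphine replicate 3. miR-219c-5p, opposite miR-219a-1-3p, had 14, 2 and 5 counts under saline and 17, 10 and 17 under morphine. Names that share most of a reverse complement thus had near-equal counts in some pairs of this table and unequal counts in others. The reason for the difference was not tested. For the pairs with near-equal counts, the share of reads from each strand cannot be told apart here.

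Among 396 other miRNAs with a mean of at least 10 CPM, those most like miR-338-3p over the 6 libraries, by Pearson's correlation of log2(CPM + 1), were miR-140-5p (0.994), miR-126a-5p (0.993), miR-126b-3p (0.993), miR-16-5p (0.984) and miR-148b-5p (0.983). All 5 were highest in saline replicate 2, as in miR-140-5p with 218.8 CPM there and at most 78.4 CPM elsewhere. miR-126a-5p is known from endothelial cells, and miR-126b-3p lies opposite it. Those most like miR-219a-2-3p were miR-30c-2-3p (0.852), miR-574-3p (0.839), miR-92a-3p (0.808), let-7b-3p (0.804) and miR-455-3p (0.785). miR-338-3p and miR-219a-2-3p were not alike, with a correlation of -0.53, whereas miR-338-5p and miR-219b-5p correlated at 0.92. These correlations are descriptions over 6 libraries that share their scaling, and 1 library, saline replicate 2, weighs heavily in those of miR-338-3p. Like miR-219a-2-3p, miR-574-3p, miR-92a-3p, let-7b-3p and miR-455-3p were also lowest in that library. An example is miR-92a-3p, with 57.4 CPM there and at least 164 CPM elsewhere. miR-30c-2-3p was not lowest there.

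A list of other miRNAs known from the oligodendrocyte lineage held 18 names, of which 17 were in the table. By the same criteria 1 was higher in the morphine group, 3 were lower and 13 were not called, against 19.4% called among all miRNAs. The median log2FC of the list was -0.01, against -0.15 over all miRNAs. miR-146a-5p rose, with a log2FC of 2.29 (SE 0.47, edgeR adjusted p = 0.00582). It is also a marker of microglia and a known brake on inflammatory signalling. miR-204-5p was called lower, with a log2FC of -1.50 (SE 0.47, adjusted p = 0.0533), and is also abundant in choroid plexus. miR-125a-3p, known to slow oligodendrocyte maturation, was called lower at -1.46 (adjusted p = 0.132), and miR-19b-3p, of the miR-17-92 cluster that is known to favour precursor division, at -3.04 (adjusted p = 0.0507), all in edgeR. miR-19b-3p had 12, 294 and 17 counts under saline and 22, 9 and 13 under morphine. It thus shared with miR-219a-5p a single high value in saline replicate 2. Without that library its log2FC was -0.018 and the call was lost. Of the same cluster, miR-17-5p was at 0.59 and miR-18a-5p at -0.75 with all 6 libraries, and neither was called. miR-138-5p, found with miR-219 and miR-338 in maturing oligodendrocytes, and a neuronal marker as well, averaged 703 ± 467 CPM (SD, n = 3) under saline and 564 ± 149 CPM (SD, n = 3) under morphine (log2FC -0.32, adjusted p = 0.731 with edgeR). miR-23a-3p, a known repressor of lamin B1, had a log2FC of -0.01 (adjusted p = 0.998 with edgeR). Without saline replicate 2, 9 of the 17 were called higher and 3 lower. In that fit 37.0% of all miRNAs were called, 20.9% as higher and 16.1% as lower. The 9 higher were miR-32-5p, miR-7a-5p, miR-146a-5p, miR-199a-5p, miR-212-3p, miR-27a-3p, miR-9-5p, miR-17-5p (1.23) and miR-214-3p. The 3 lower were miR-204-5p, miR-125a-3p and miR-145a-5p. miR-138-5p turned to 0.37 and was not called.

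Markers of other cell types were called in both directions, where 19.4% of all miRNAs met the same criteria, 9.68% in each direction. In lists this short, 1 call cannot be told apart from that share. The summed level of a list often followed 1 abundant member. Of 6 neuronal markers 3 were called lower, miR-124-3p (log2FC -1.88), miR-129-5p (-2.07) and miR-129-2-3p (-1.49), and the sum was 72498 to 114967 CPM under saline and 76314 to 114727 CPM under morphine. The other neuronal markers were not called, at 0.47 for miR-128-3p, -0.24 for miR-137-3p and -0.32 for miR-138-5p. miR-128-3p, the most abundant of them, averaged 60414 ± 6575 CPM (SD, n = 3) under saline and 83892 ± 18850 CPM (SD, n = 3) under morphine. Of 5 microglial markers 1 was called higher, miR-146a-5p, which made up most of a sum of 157 to 275 CPM against 858 to 1072 CPM. The other microglial markers were not called, at -0.39 for miR-142a-3p, -0.67 for miR-142a-5p, 0.89 for miR-155-5p and 0.41 for miR-223-3p. Of 2 endothelial markers miR-126a-3p was called higher at 2.42, with a sum of 1485 to 5002 CPM against 10984 to 16264 CPM that is nearly all miR-126a-3p, and miR-126a-5p had a log2FC of -0.96 and was not called. Of 3 mural cell markers none was called at an unadjusted p of at most 0.05 by edgeR, and the sum was 7139 to 18968 CPM against 5731 to 13781 CPM. Of 4 erythroid markers 1 was called higher, miR-451a, and the sum was 216 to 312 CPM against 360 to 572 CPM. The other erythroid markers were not called, at -1.31 for miR-144-3p, -1.16 for miR-144-5p and -0.20 for miR-486a-5p. Of 5 markers of multiciliated cells 1 was called higher, miR-34b-3p, and the sum was 73.2 to 875 CPM against 274 to 413 CPM. The other multiciliated markers were not called, at 0.17 for miR-34b-5p, -0.29 for miR-34c-5p, 0.69 for miR-449a-5p and 0.41 for miR-449c-5p. Of 2 choroid plexus markers 1 was called lower, miR-204-5p, and the sum was 1226 to 2578 CPM against 627 to 744 CPM. Among the called markers, the edgeR adjusted p was under 0.05 for miR-124-3p, miR-129-5p, miR-146a-5p and miR-126a-3p. For the rest it was 0.0786 for miR-129-2-3p, 0.0698 for miR-451a, 0.245 for miR-34b-3p and 0.0533 for miR-204-5p. Counts of 0 occurred in some libraries for miR-144-3p, miR-34b-5p and miR-449c-5p.

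These marker calls also changed without saline replicate 2, a fit in which 37.0% of all miRNAs were called, 20.9% as higher and 16.1% as lower. miR-126a-5p turned to a called 1.25, as miR-338-3p turned to a called 0.88. The microglial miR-142a-3p and miR-142a-5p turned to 0.39 and 0.68, and neither was called. Of the multiciliated markers 4 of 5 were then called higher, miR-34b-3p, miR-34b-5p, miR-34c-5p and miR-449a-5p. The call of miR-34b-5p rested on 9, 6 and 4 counts under morphine, against 0 counts in saline replicates 1 and 3. miR-137-3p (2.42) and miR-145a-3p (2.18) became called higher, and miR-145a-5p (-0.72), miR-486a-5p (-0.65) and miR-211-5p (-1.43) became called lower, while the other marker calls made with all 6 libraries were kept. Saline replicate 2 had the highest saline sum for microglial, endothelial, mural and multiciliated markers and the lowest for the others. The part of these markers in the values of miR-219a-5p and miR-338-3p was not tested.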

How the data were processed

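Small RNA libraries of NAc tissue were analysed, 3 from saline-treated and 3 from morphine-treated mice. The authors removed adapter-containing, poly-N, low-quality and wrongly sized reads, used Bowtie to discard reads of other RNA classes and of repeats, and compared the rest with miRBase. They deposited a raw read count per mature miRNA and library. The deposited TPM values are the counts over the library total, with no length term, and entered no test. The genome build, miRBase release and strand handling are not given in the sources used here. 0 columns were left unused.

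Counts of all 1364 miRNAs were scaled by TMM and tested with edgeR 4.0.16 in R 4.3.3 (estimateDisp, glmQLFit, glmQLFTest, no covariate). Calls needed |log2FC| ≥ 0.58 with unadjusted p ≤ 0.05, the criteria of the study. Adjusted p-values are Benjamini-Hochberg values over all miRNAs tested. Standard errors were derived from the coefficient and its F statistic, and intervals are 95% intervals. Ratios were tested with exact two-sided permutation tests (scipy 1.17.1). DESeq2 1.42.0 was an alternative. The test was tried on simulated counts.

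All 9 members were named, with the called members of the lists, 2 others, and the 5 miRNAs most correlated with miR-219a-2-3p and miR-338-3p. The members and lists were chosen with earlier results of these data known. miR-219c and the opposite-strand pair of miR-142 were named after their values were seen. So were the other list members and cell type markers not called with all 6 libraries. The closest pair of libraries had a chi-square per degree of freedom of 55.2, so each library was counted separately. Sequences and mature positions are from RefSeq (GRCm38.p6), and hairpin positions from GENCODE vM21 (GRCm38).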

Additional observations from a re-analysis of the deposited data

How the results depend on the processing

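Of the 9 members, 2 were called under 10 of the alternatives to the scaling, filter and test. The others were DESeq2, with 0 calls among 7 members because miR-219a-5p and miR-219b-3p had no p-value, and removal of the opposite-strand members, with 1 call among the 5 left. Leaving out a library gave 2 to 3 calls. The 3 calls came without saline replicate 2 and were other members than the 2 of the main test. There miR-338-3p and miR-3065-5p were called higher and miR-219a-1-3p lower, while miR-219a-5p and miR-219b-3p were not called.

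The adjusted call of miR-219a-5p was lost with the filterByExpr filter (log2FC -3.60), with a minimum of 10 counts (-3.74), with the quasi-likelihood method of edgeR version 4 (-3.65, adjusted p = 0.124), which was added after seeing the data, and with the replicate number as a block (-2.58), against -3.69 in the main test. Over all alternatives its adjusted p in edgeR ran from 7.18e-07 to 0.543.

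The sign of a small difference followed the scaling. The median log2FC of all miRNAs was -0.15 with TMM, -0.23 with RLE, -0.40 with library totals and -0.35 with upper quartiles, and 50.0%, 44.2%, 34.9% and 37.7% of calls were higher in the morphine group. miR-219a-2-3p reversed to -0.080 with RLE and with DESeq2, -0.37 with totals, -0.25 with upper quartiles and -0.039 with the minimum of 10 counts. Totals and upper quartiles reversed miR-219b-5p to -0.14 and -0.038 and miR-338-5p to -0.16 and -0.059, and totals reversed miR-3065-3p to -0.087. The cause was not tested. Leaving out 1 library, log2FC ran from -0.079 to 0.15 for miR-219a-2-3p, from -0.88 to 0.052 for miR-219a-1-3p, and from -0.60 to 0.88 for miR-338-3p and miR-3065-5p. The log2 ratio difference ran from -0.64 to 0.74 for miR-338-3p over miR-338-5p and from -0.92 to 0.46 for miR-219a-2-3p over miR-338-3p.

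Same-numbered libraries did not pair, with correlations of deviations of -0.23, -0.28 and 0.14. The replicate block kept 2 members called, lowered the calls among all miRNAs from 264 to 179 and reversed miR-338-3p and miR-3065-5p to 0.10. Among all miRNAs, 71 had an adjusted p under 0.05, against 160 with totals, 153 with upper quartiles, 156 with DESeq2, 28 with the minimum of 10 counts, 32 with the block, 38 with edgeR version 4 and 0 to 386 without 1 library. miR-219a-5p and miR-219b-3p had as few as 3 counts in a library, near the limit of what the depth can show.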
